A study of Mus musculus with 6 samples.

Results

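The genes described here are 30 genes of the oligodendrocyte lineage, taken from a table of 53421 genes by their symbols in the mouse annotation. They were grouped by the stage at which each is best known. These groups are 4 precursor markers, 6 lineage transcription factors, 4 differentiation-stage genes and 16 myelin and mature genes. The rule that chose and grouped them uses no measured value, but the genes were chosen with earlier results of these data known.

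The study measured RNA-seq read counts per gene after knockdown (KD) of YTHDF2, a protein that binds m6A-modified mRNAs and promotes their decay, in cultured cerebellar granule cells (GCs). All 6 libraries came from C57BL/6 mice, whose cerebella were taken at postnatal day 8 by the labels and whose GCs were dissociated, cultured, infected with lentivirus and selected with puromycin. Lentivirus carried a short hairpin RNA against Ythdf2 in the shYthdf2 group (replicates 1, 2 and 4) and a control hairpin in the shCtrl group (also replicates 1, 2 and 4). The libraries of the KD group carry the number of a single hairpin in their names, so the KD rests on 1 hairpin, in a culture for which no sort of a cell type is described. Sample titles and genotypes assign KD and control the opposite way to the library names. The library names were used, and if the titles were right, higher and lower would be exchanged throughout.

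In the shYthdf2 group, Ythdf2 itself was at 499.6, 401 and 499.7 normalized counts in replicates 1, 2 and 4. In the shCtrl group it was at 617, 839 and 627. All 3 shYthdf2 libraries were below all 3 shCtrl libraries, with 67.3% of the mean level remaining (two-sided exact permutation test, p = 0.1, which is the smallest p that the 10 splits of 3 against 3 libraries allow). By the library names this is the direction of a KD, while by the titles Ythdf2 would be higher in the KD group. Its log2 fold change was -0.57 ± 0.165 (SE), with an adjusted p of 0.125 (edgeR's quasi-likelihood test, p-values adjusted by Benjamini-Hochberg over all genes tested). The libraries held 17246821 to 21546595 counts. Normalized counts are counts brought by TMM normalization, which corrects for library size and composition, to a common library size of 18917881.

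Oligodendrocytes are the glial cells that wrap axons of the central nervous system in myelin. Proliferating precursors first become committed, premyelinating cells, which pass through a short stage marked by genes that are later switched off, and then build and maintain the myelin sheath. In the cerebellum the precursors spread through the future white matter around and after birth, and myelin genes rise steeply during the early postnatal weeks. GC cultures are prepared from the whole dissociated cerebellum and can therefore carry some cells of this lineage.

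All 30 genes had counts above 0 in every library, and together they took 0.0405% to 0.136% of the counts. In contrast, 10 granule cell markers, with Zic1 at 60508 to 66234 normalized counts, took 0.842% to 0.976%. Per kilobase of exon, Mbp, the basic protein that compacts the myelin sheath, had the highest level of the 30 genes, with a mean of 41.9 CPM per kilobase (depth-scaled counts divided by exon length) in the shYthdf2 group and 28.3 in the shCtrl group. Cnp, a phosphodiesterase of the uncompacted myelin, came next on this scale with 32.6 and 21.8, followed by Cldn11, the claudin of myelin tight junctions, with 20.2 and 15.2. At the low end, Opalin, a glycoprotein of mature oligodendrocytes, had 0.163 and 0.187 CPM per kilobase, and Aspa, the enzyme that cleaves N-acetylaspartate, had 0.170 and 0.134. The early stages were not at the bottom of this order, since the means of Bcas1 (14.8 and 9.03), Olig1 (12.2 and 10.6) and Sox10 (11.2 and 8.33) were above those of most myelin genes. Mbp alone gave 27.3% to 38.6% of the summed normalized counts of the 30 genes. Opalin was too low for the filter on low counts, so that 29 of the 30 genes were tested.

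The promoters of 3 genes are printed as examples of a precursor, a differentiation-stage and a myelin gene. Each is the gene of its stage with the highest level per kilobase among those in the promoter table, and the bases shown end before the annotated start of the gene. They are RefSeq sequences of GRCm38.p6 on the plus strand, at chr5:75152001-75152250 for Pdgfra, chr8:46986637-46986886 for Enpp6 and chr11:100574689-100574903 for Cnp. Capitals mark a match to ACAAAG or ACAATG on either strand, the cores that transcription factors of the SOX family prefer.
Pdgfra: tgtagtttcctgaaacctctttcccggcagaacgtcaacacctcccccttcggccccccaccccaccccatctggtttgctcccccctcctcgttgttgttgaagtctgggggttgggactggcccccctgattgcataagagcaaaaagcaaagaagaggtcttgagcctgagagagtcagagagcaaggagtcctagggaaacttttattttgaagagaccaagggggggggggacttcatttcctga
Enpp6: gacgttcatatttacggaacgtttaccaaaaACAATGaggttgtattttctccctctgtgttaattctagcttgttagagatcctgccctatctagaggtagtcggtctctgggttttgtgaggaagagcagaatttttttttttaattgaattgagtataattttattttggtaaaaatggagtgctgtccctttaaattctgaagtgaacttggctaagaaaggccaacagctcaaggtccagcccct
Cnp: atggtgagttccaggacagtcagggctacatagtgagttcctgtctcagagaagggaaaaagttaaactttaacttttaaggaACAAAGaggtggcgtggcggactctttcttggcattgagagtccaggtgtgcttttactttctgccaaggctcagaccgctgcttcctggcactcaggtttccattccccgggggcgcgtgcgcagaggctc

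A promoter window of 250 bases was found for 21 of the 30 genes. At least 1 of the 2 SOX cores was present in 8 of these 21 windows (38.1%), those of Tnr, Ermn, Mag, Enpp6, Mobp, Cnp, Olig2 and Opalin, and in 25.5% of all 27025 windows of this length. The E-boxes CAGCTG and CATATG, letters bound by basic helix-loop-helix factors such as OLIG2, were present in 3 of the 21 windows (14.3%), those of Tspan2, Lhfpl3 and Aspa, and in 15.9% of all windows. These are matches of letters only. The windows of Olig2 and Cnp run past the annotated start of the gene, and the SOX core of Olig2 lies past that start.

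The library shCtrl replicate 2 stood apart from the other shCtrl libraries in this lineage. Over the 29 genes tested, its root mean square log2 distance was 1.88 to shCtrl replicate 1 and 1.82 to shCtrl replicate 4, which were 0.334 apart from each other. It was nearer to shYthdf2 replicates 1 and 4, at 0.547 and 0.642, than to shYthdf2 replicate 2, at 0.815. Over all 17214 genes tested the nearest library to it was shYthdf2 replicate 2, at 0.535. In 28 of the 29 genes shCtrl replicate 2 was above both other shCtrl libraries, Trf being the exception, and in 13 genes it was the highest of all 6 libraries. The values of members are therefore given library by library, and calls of members and of further lineage genes also without replicate 2. Since this choice came from the values of these genes, calls and p-values without replicate 2 are no independent evidence of a difference.

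**Figure D1:**
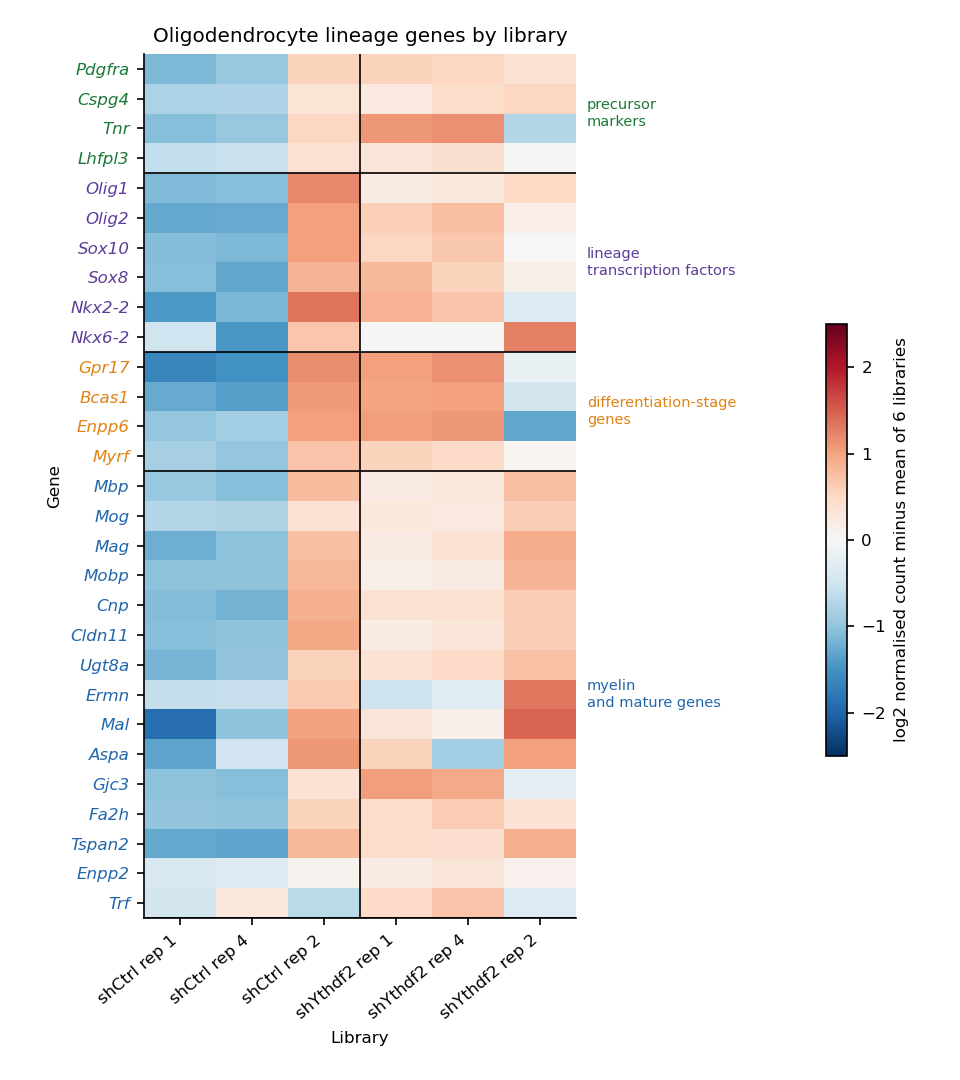
Heat map of the 29 lineage genes tested (rows, coloured and ordered by stage) in the 6 libraries (columns). Colour is the log2 normalized count minus the mean of that gene over the 6 libraries. The columns of shCtrl replicates 1 and 4 are low for nearly every gene, while shCtrl replicate 2 is as high as the shYthdf2 libraries, and shYthdf2 replicate 2 is low for Enpp6, Tnr and Bcas1 but high for most myelin genes.

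In the comparison of the 2 groups over all 6 libraries, 0 of the 29 genes passed an adjusted p of 0.05 by edgeR's quasi-likelihood test, compared with 0.604% of all genes tested. At an unadjusted p under 0.05, 1 of the 29 passed, against 20.1% of all genes, and DESeq2 also gave 0 at its adjusted threshold, which 8.88% of all genes passed. The estimate of the log2 fold change was above 0 in all 29 genes, from 0.21 for Olig1 to 1.11 for Gjc3, with a median of 0.60. The median of all genes tested was 0.01. Groups did not overlap in 1 of the 29 genes, against 26.0% of all genes. With the replicate number as a block, 0 of the 29 passed the adjusted threshold, against 1.35% of all genes, and 10 passed the unadjusted one as higher, against 15.4% of all genes. In these bulk cultures, a difference in the number of lineage cells and a difference in RNA per cell cannot be told apart.

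The spread behind this result lay mainly in shCtrl replicate 2. The summed normalized counts of the 30 genes were 21000, 21860 and 21826 in shYthdf2 replicates 1, 2 and 4. In shCtrl they were 7748, 26705 and 7661, and the ratios within replicate numbers differed accordingly. In replicate 1, all 29 genes were higher in the shYthdf2 library than in the shCtrl library, with a median ratio of 2.75. Replicate 4 gave 28 of 29 and the same median ratio of 2.75, the exception being Aspa. In replicate 2, 11 genes were higher and 18 lower in the shYthdf2 library, with a median ratio of 0.870. A gene higher in both replicates 1 and 4 was found in 41.5% of all genes tested, and a gene over 2-fold higher in both in 5.23% of all genes, compared with 22 of the 29 lineage genes. Lower levels in replicate 2 together with higher levels in replicates 1 and 4 were seen in 17 of the 29 (58.6%) and in 14.5% of all genes. In replicate 2, 6 of the 29 genes (Tnr, Sox10, Nkx2-2, Gpr17, Bcas1 and Enpp6) were over 2-fold lower, against 2.96% of all genes. Each of these ratios compares 1 library with 1 library and has no test.

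**Figure D2:**
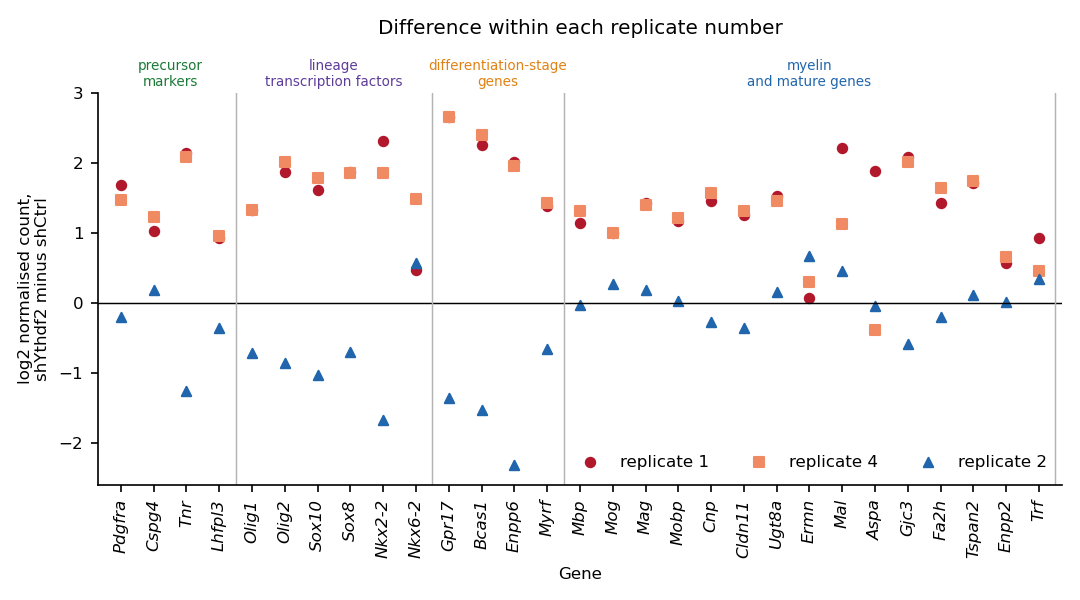
Difference in log2 normalized count between the shYthdf2 and the shCtrl library of the same replicate number (y axis) for each of the 29 genes tested (x axis, by stage). Circles and squares are replicates 1 and 4, which nearly coincide for most genes and lie above 0 except for Aspa in replicate 4. Triangles are replicate 2, which lie lowest for Enpp6 at -2.32 and between -0.58 and 0.67 for the myelin and mature genes.

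Precursor markers had a median log2 fold change of 0.74 over the 6 libraries, and the summed level of the 4 genes was 3243, 2058 and 3316 normalized counts in shYthdf2 replicates 1, 2 and 4. The corresponding sums in shCtrl were 994, 2821 and 1077. The shCtrl sum of replicate 2 thus lay within the range of the shYthdf2 libraries, and the groups overlapped. Pdgfra, the receptor through which platelet-derived growth factor maintains precursors, had 1279, 1122 and 1232 normalized counts in shYthdf2 and 396, 1287 and 444 in shCtrl. Its 3 shYthdf2 libraries were close together, while shCtrl replicate 2 was the highest of all 6. Tnr, the matrix protein tenascin-R, had 1424, 402 and 1487 in shYthdf2 and 322, 963 and 351 in shCtrl. For Tnr it was shYthdf2 replicate 2 that fell among the control values, and its ratios within replicates 1, 2 and 4 were 4.42, 0.418 and 4.24.

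The other precursor markers differed less. Cspg4, the NG2 proteoglycan, had 234, 282 and 269.9 normalized counts in shYthdf2 and 114, 249 and 115 in shCtrl. It was the precursor marker with the smallest unadjusted p, at 0.0572 (adjusted p = 0.262, edgeR), and was higher in shYthdf2 in all 3 replicates. Lhfpl3, a tetraspan membrane protein enriched in precursors, had 308, 251 and 326 in shYthdf2 and 161, 322 and 168 in shCtrl. It shares exon bases with the antisense gene A930003O13Rik, which held at most 32 counts.

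Lineage transcription factors had the lowest median log2 fold change of the stages, 0.51, and the largest excess of shCtrl replicate 2, whose median ratio to the mean of shCtrl replicates 1 and 4 was 4.65. Their summed level was 1799, 1520 and 1891 in shYthdf2 and 592, 2731 and 581 in shCtrl, so the highest and the 2 lowest values all belonged to the control group. Olig2, the basic helix-loop-helix factor needed to specify the lineage, had 328, 244 and 365 normalized counts in shYthdf2 and 89.4, 442 and 89.8 in shCtrl. Its relative Olig1 had 462, 561 and 478.5 in shYthdf2 and 184, 919.8 and 191 in shCtrl. Both genes were lower in the shYthdf2 library of replicate 2 only, with ratios there of 0.552 and 0.610. Sox10, which directly activates myelin genes, had 692.5, 484.5 and 769.6 in shYthdf2 and 227, 992 and 222 in shCtrl. Its close relative Sox8 was also highest in shCtrl replicate 2, with 196, 123 and 164 in shYthdf2 and 53.1, 201 and 44.9 in shCtrl.

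Nkx2-2 and Nkx6-2, homeodomain factors of differentiating and of myelinating cells, went apart in shYthdf2 replicate 2. Nkx2-2 had 93.9, 40.6 and 84.7 normalized counts in shYthdf2 and 18.6, 131 and 23.0 in shCtrl. Nkx6-2 had 27.1, 67.7 and 28.6 in shYthdf2 and 19.5, 45.4 and 9.9 in shCtrl. In replicate 2 the shYthdf2 library was thus lower for Nkx2-2 (ratio 0.312) and higher for Nkx6-2 (ratio 1.49). Nkx6-2 shares 246 exon bases with Inpp5a on the other strand, which held up to 853 counts against 9 to 70 for Nkx6-2, and the strand setting of the counting was not given in the sources used here.

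Differentiation-stage genes showed the largest ratios in both directions. Their summed level was 3301, 1406 and 3414 in shYthdf2 and 735, 3563 and 721 in shCtrl. The shYthdf2 sum was 4.49-fold and 4.74-fold that of shCtrl in replicates 1 and 4, and 0.395-fold in replicate 2. Gpr17, a G protein-coupled receptor present only transiently in committed cells, had 1135, 493 and 1235 normalized counts in shYthdf2 and 180.5, 1263 and 196 in shCtrl. The high values of Gpr17 were those of shYthdf2 replicates 1 and 4 and shCtrl replicate 2, and its ratio was 6.27 and 6.29 in replicates 1 and 4. Bcas1, a marker of early myelinating cells, had 1323, 484.5 and 1354 in shYthdf2 and 277, 1400.0 and 257.5 in shCtrl. Enpp6, a choline-specific phosphodiesterase of newly forming oligodendrocytes, had 329.6, 64.8 and 339.8 in shYthdf2 and 81.4, 326 and 87.7 in shCtrl. For Enpp6 the shYthdf2 library of replicate 2 was the lowest of all 6, at 0.195-fold the mean of its group's other libraries. Myrf, the membrane-bound factor that switches on myelin genes, had 513, 364 and 485 in shYthdf2 and 196, 575 and 179.7 in shCtrl, so that shYthdf2 replicate 2 came below its own group and above shCtrl replicates 1 and 4. The adjusted p of these 4 genes lay between 0.553 and 0.704 in the 6 libraries (edgeR), and the ratio in replicate 2 was below 1 for all 4.

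**Figure D3:**
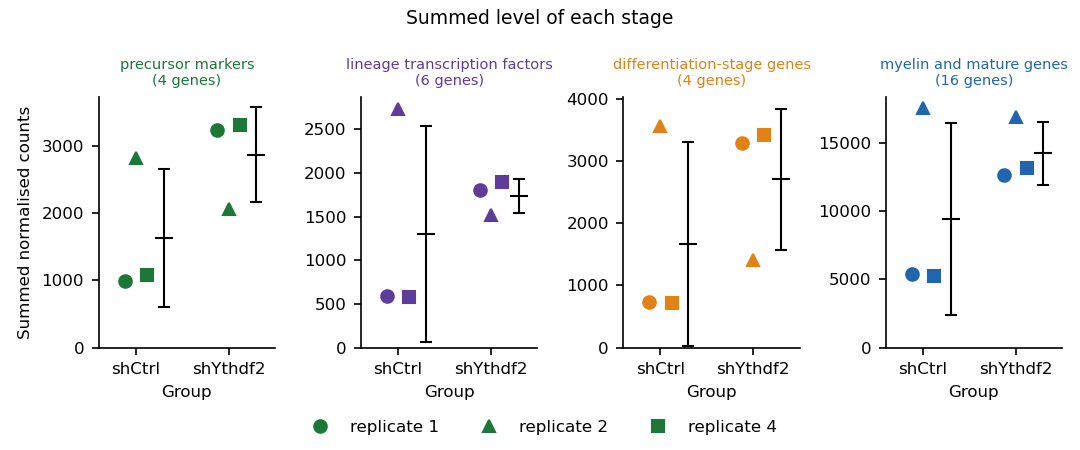
Summed normalized counts of each stage (y axis, starting at 0, with its own scale in each panel) in the shCtrl and shYthdf2 groups (x axis). Points are libraries, with triangles for replicate 2, and the black bars are the mean ± SD of 3 libraries. Replicate 2 of shCtrl lies far above replicates 1 and 4 in every panel, and replicate 2 of shYthdf2 lies below them for differentiation-stage genes (1406) and above them for myelin and mature genes (16876).

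Myelin and mature genes had a median log2 fold change of 0.60, with 15 of the 16 tested. Their summed level was 12657, 16876 and 13206 in shYthdf2 and 5427, 17589 and 5283 in shCtrl, with ratios of 2.33, 0.959 and 2.5 in replicates 1, 2 and 4. Unlike the differentiation-stage genes, both libraries of replicate 2 were high. Mbp had 5734, 8449 and 5975 normalized counts in shYthdf2 and 2603, 8615 and 2404 in shCtrl. Cnp had 2117, 2483 and 2126 in shYthdf2 and 771, 3020.4 and 714 in shCtrl. It shares 154 exon bases with Dnajc7 on the other strand, which held up to 2373 counts. Mag, the adhesion protein at the axonal face of the sheath, had 846, 1389.6 and 936 in shYthdf2 and 315, 1228 and 356 in shCtrl. In all 3 genes the 2 libraries of replicate 2 were the highest of their group. Mog, the glycoprotein at the outer face of myelin, had 307, 392 and 303 in shYthdf2 and 153, 327 and 151 in shCtrl, with an adjusted p of 0.290 (edgeR).

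The genes of myelin lipids had similar ratios. Ugt8a, which makes the galactolipids of myelin, had 278.5, 361 and 299.6 normalized counts in shYthdf2 and 96.4, 324 and 108.5 in shCtrl. Fa2h, which hydroxylates their fatty acids, had 599.7, 566 and 690.2 in shYthdf2 and 224, 650.3 and 220.2 in shCtrl. Within replicates 1 and 4 these genes were 2.68-fold to 3.13-fold higher in shYthdf2, and within replicate 2 their ratios were 1.11 and 0.870. The structural genes Mobp (a second basic protein of compact myelin), Cldn11 and Tspan2 (a tetraspanin of the sheath) were between 2.24-fold and 3.35-fold higher in replicates 1 and 4. In replicate 2 the ratios of these genes were 1.02, 0.781 and 1.08.

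Enpp2, which encodes the secreted enzyme autotaxin, was the member with the smallest p. It had 849, 799.7 and 935 normalized counts in shYthdf2 and 571, 793 and 595 in shCtrl. Its groups did not overlap, by the narrow distance between the shYthdf2 and shCtrl libraries of replicate 2, and without the filter on low counts they did overlap. The log2 fold change was 0.40 ± 0.152 (SE), with an unadjusted p of 0.0327 and an adjusted p of 0.205 by edgeR's quasi-likelihood test, and without replicate 2 the adjusted p was 2.6e-06. Gjc3, the connexin with the largest log2 fold change (1.11 ± 0.476 SE, adjusted p = 0.25, edgeR), had 435, 179 and 404 in shYthdf2 and 103, 269 and 99.7 in shCtrl. Among the myelin and mature genes it was the one most like the differentiation-stage genes in its order of libraries, with shYthdf2 replicate 2 at 0.427-fold the mean of replicates 1 and 4. This likeness was noticed after the values were seen.

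Ermn, Mal and Aspa, the cytoskeletal protein ermin, a proteolipid of myelin and the N-acetylaspartate-cleaving enzyme, had their highest or second highest value in shYthdf2 replicate 2. Ermn had 25.0, 90.9 and 29.6 normalized counts in shYthdf2 and 23.9, 57.0 and 24.1 in shCtrl. Mal had 100.1, 220.5 and 86.8 in shYthdf2 and 21.2, 160.4 and 39.4 in shCtrl. For Ermn the libraries of replicates 1 and 4 hardly differed between the groups, with ratios of 1.05 and 1.22. Aspa had 20.9, 29.0 and 7.4 in shYthdf2 and 5.3, 30 and 9.9 in shCtrl. Opalin, below the filter, had 7.3, 13.5 and 6.4 in shYthdf2 and 4.4, 20.3 and 6.6 in shCtrl. Trf, the iron carrier transferrin, had 24, 13.5 and 28.6 in shYthdf2 and 12.4, 10.6 and 20.8 in shCtrl. For Trf, unlike the other genes tested, shCtrl replicate 2 was the lowest of all 6 libraries.

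The balance between stages also differed by library. The mean log2 level of differentiation-stage genes relative to that of myelin and mature genes, with each gene centred on its own mean, was 0.59, -1.12 and 0.65 in shYthdf2 replicates 1, 2 and 4. In shCtrl it was -0.17, 0.39 and -0.34. The lowest value was that of shYthdf2 replicate 2, and shCtrl replicate 2 lay between its own group and shYthdf2 replicates 1 and 4. For precursor markers relative to myelin and mature genes, the values were 0.24, -0.60 and 0.35 in shYthdf2 and 0.12, -0.14 and 0.03 in shCtrl. Within shYthdf2, replicate 2 had a median ratio to replicates 1 and 4 of 0.842 for precursor markers, 0.695 for lineage transcription factors, 0.389 for differentiation-stage genes and 1.30 for myelin and mature genes. Within shCtrl the same ratios were 2.49, 4.65, 4.48 and 3.44. These values were not tested, since each stage is described by 1 library of replicate 2 in each group.

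Without both libraries of replicate 2, 25 of 28 genes rose in shYthdf2 at an adjusted p under 0.05 and 0 fell (edgeR's quasi-likelihood test), with a median log2 fold change of 1.5. In that comparison of 2 against 2 libraries, 52.7% of all genes passed and 25.8% of all genes passed as higher, with 27.0% as lower. Leaving out the control library that was high in these same genes favours calls as higher, so the counts describe the remaining libraries only. The calls were 4 of 4 precursor markers, 5 of 6 lineage transcription factors, 4 of 4 differentiation-stage genes and 12 of 14 myelin and mature genes. Gpr17 had the highest estimate, 2.65 ± 0.079 (SE), followed by Bcas1 with 2.32 ± 0.069 and Tnr with 2.11 ± 0.066. Nkx6-2, Ermn and Trf did not pass, with log2 fold changes of 0.88, 0.18 and 0.68, and Aspa and Opalin were below the filter. Without shCtrl replicate 2 alone, 23 of 29 genes rose, against 9.42% of all genes that passed as higher. Tnr, Nkx6-2, Enpp6, Ermn, Aspa and Trf did not pass in that fit. Leaving out any other single library gave 0 calls among the 30 genes.

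**Figure D4:**
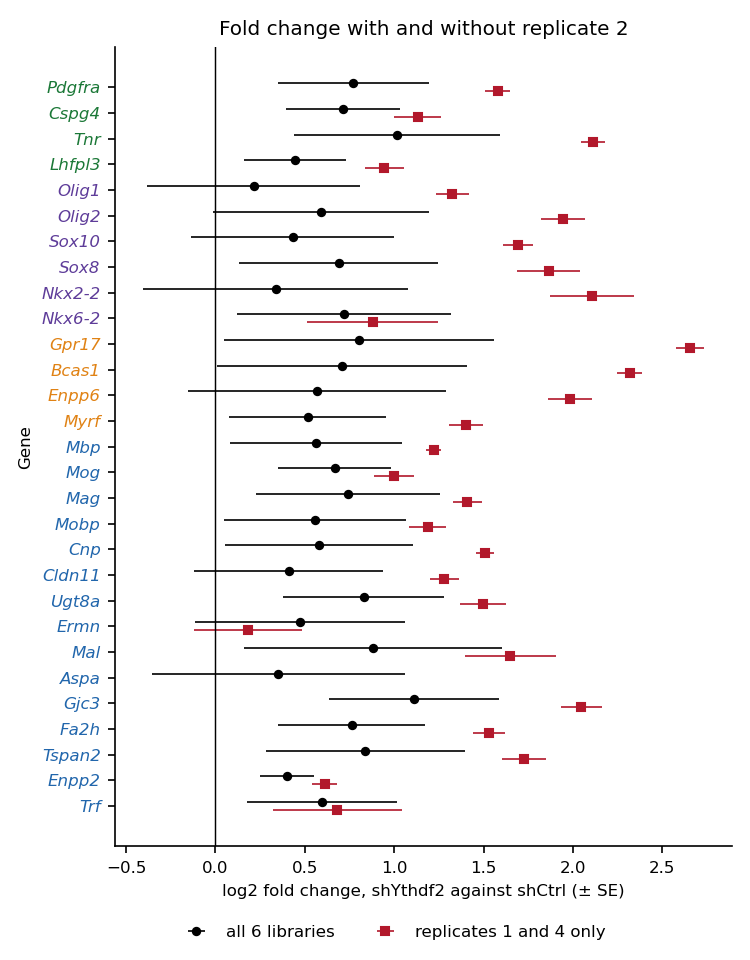
Log2 fold change of each gene, shYthdf2 against shCtrl, with bars of ± 1 SE, in the edgeR fit of all 6 libraries (black circles) and in the fit of replicates 1 and 4 only (red squares). Gene names are coloured by stage, and Aspa has no red square because it was below the filter there. The red estimates are higher for every gene except Ermn and have shorter bars, with Gpr17 farthest right at 2.65.

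A further 39 known genes of the lineage were examined in the same fit. Of the 38 tested, 0 passed the adjusted threshold and 6 passed the unadjusted one (15.8%), all higher in shYthdf2. Of all genes, 20.1% passed the unadjusted threshold in either direction and 9.50% as higher. The estimate was above 0 in 33 of 38, with a median of 0.38. Without both libraries of replicate 2, 30 of the 38 passed the adjusted threshold as higher and 2 as lower, with a median of 0.92. In that fit 25.8% of all genes passed as higher and 27.0% as lower. Among 10 other precursor genes, Sox5, a SOX factor shared with neurons, had 1401, 1656.5 and 1385 normalized counts in shYthdf2 and 909, 1117 and 969.7 in shCtrl. Its groups did not overlap, and its adjusted p was 0.0755 in edgeR without a block and 0.0450 with the replicate number as a block. Vcan and Ptprz1, the proteoglycan versican and a receptor phosphatase of precursors, were also separated between the groups, with adjusted p of 0.115 and 0.170 (edgeR). C1ql1, of the same list, was separated the other way. It had 98, 118 and 126 normalized counts in shYthdf2 and 148.6, 174.9 and 130.4 in shCtrl (adjusted p = 0.295, edgeR). Of these 10 precursor genes, the groups did not overlap in 4 as higher and 1 as lower (50%, against 26.0% of all genes). Cacng4, a regulatory subunit of ion channels and receptors, had a log2 fold change of 0.34 ± 0.123 (SE). Without replicate 2, the log2 fold changes of Sox5, Vcan, Ptprz1 and Cacng4 were 0.57, 0.86, 1.46 and 0.47, and all 4 passed the adjusted threshold. Within replicate 2 the ratios of Sox5, Vcan and Ptprz1 were 1.48, 1.09 and 1.01, so Sox5 differed about as much there as in the other replicates.

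Of 9 other differentiation genes, 8 were higher in the shYthdf2 library in both replicates 1 and 4 and lower in replicate 2, a pattern of 14.5% of all genes. Itpr2, a calcium release channel of newly committed cells, had 503, 239.8 and 472 normalized counts in shYthdf2 and 130.1, 387 and 120.5 in shCtrl. Its adjusted p was 0.339 (edgeR) in the 6 libraries and 6.61e-10 without replicate 2, and shCtrl replicate 2 lay within the shYthdf2 range. Zfp488, a nuclear regulator of differentiation, and Tns3, an adhesion protein of newly differentiating cells, had log2 fold changes of 1.00 and 0.59 and adjusted p of 0.302 and 0.362. Without replicate 2 their log2 fold changes were 1.95 and 1.23, and both passed. Fyn, Sirt2 and Zfp536, the most abundant genes of that list, had log2 fold changes of -0.05, 0.25 and -0.06, and of 0.14, 0.70 and -0.24 without replicate 2, when all 3 passed.

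Among 20 other myelin genes, Anln, which encodes a cytoskeletal protein also present in dividing cells, had 67.8, 84.1 and 76.2 in shYthdf2 and 26.5, 41.5 and 37.3 in shCtrl. It was higher in shYthdf2 in all 3 replicates, by 2.53, 2.01 and 2.03-fold, with an adjusted p of 0.0872, and of 0.000637 without replicate 2 (edgeR). Gpr37, a receptor of mature oligodendrocytes, had a log2 fold change of 0.77 ± 0.461 (SE). The estimates of Nfasc and Cd9, which other cells express as well, were -0.21 ± 0.145 and 0.11 ± 0.225. Without replicate 2, Gpr37 and Cd9 passed as higher, at 0.94 and 0.36, and Nfasc as lower, at -0.19.

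Growth and axon signals of the lineage were followed over 21 genes. Rtn4r, a receptor for myelin inhibitors, had 0 counts in all 6 libraries, and the other 20 were tested. None passed the adjusted threshold by edgeR, and 6 passed the unadjusted one, 3 higher and 3 lower (30%, compared with 20.1% of all genes). DESeq2 called 7 of the 58 genes tested here and among the other lineage genes, 5 of them higher, and 8.88% of all genes. Without replicate 2, 9 of the 20 signals passed the adjusted threshold as higher and 3 as lower (edgeR), against 25.8% and 27.0% of all genes. Erbb3, a neuregulin receptor of the lineage, had 48.0, 54.2 and 54.0 normalized counts in shYthdf2 and 130.1, 88.9 and 136 in shCtrl. All shYthdf2 libraries were lower, in the opposite direction to the estimates of the 29 members, with a log2 fold change of -1.18 ± 0.237 (SE) and an adjusted p of 0.0661. Id4, an inhibitor of basic helix-loop-helix factors that holds back differentiation, had 679, 558 and 713.5 in shYthdf2 and 256, 444.5 and 234.5 in shCtrl. Its groups did not overlap (log2 fold change 1.06 ± 0.253 SE, adjusted p = 0.0913). Pdgfc, a platelet-derived growth factor, had 109.5, 147 and 150.3 in shYthdf2 and 368, 156.5 and 348 in shCtrl, with an adjusted p of 0.137. Pdgfa, the ligand of Pdgfra, had a log2 fold change of -0.15 ± 0.139 (SE). The most abundant signals were Lingo1, a brake on myelination, with 0.41 ± 0.205, Erbb4, a neuregulin receptor, with 0.18 ± 0.138, and Adgrg1, an adhesion receptor of precursors, with -0.31 ± 0.115. Without replicate 2, the log2 fold changes of Erbb3, Id4 and Pdgfc were -1.38, 1.5 and -1.47, and all 3 passed, as did Lingo1 (0.57), Erbb4 (0.20) and Adgrg1 (-0.42), while Pdgfa (-0.16) did not.

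Markers of other cells that the culture could hold were summed in the same way, and some moved with the lineage. The sum of 8 microglia markers was 1285, 506 and 1402 normalized counts in shYthdf2 and 331, 979 and 305 in shCtrl, with ratios of 3.88, 0.517 and 4.60 in replicates 1, 2 and 4. Of the 7 tested, 0 passed at an unadjusted p of 0.05 in the 6 libraries, against 20.1% of all genes. Without replicate 2, 6 rose at the adjusted threshold, against 25.8% of all genes. C1qc, C1qb and C1qa, complement genes of microglia, were the most abundant, while P2ry12 had at most 3.9 normalized counts. As for the differentiation-stage genes, the high sums were those of shYthdf2 replicates 1 and 4 and shCtrl replicate 2. The sum of 10 astrocyte and Bergmann glia markers, led by Gfap, Fabp7 and Slc1a2, had ratios of 1.55, 0.854 and 1.52, with a range of 13663 to 14604 in shYthdf2 and 9408 to 16006 in shCtrl. Slc1a2 was lower in shYthdf2 in all 3 replicates, unlike the sum. Without replicate 2, 7 of these 10 markers rose and 1 fell at the adjusted threshold, against 25.8% and 27.0% of all genes. The part of these cells in the differences of the lineage genes was not tested.

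The remaining lists were ordered differently. Fibroblast markers, led by Col3a1, Col1a1 and Col1a2, were high in both libraries of replicate 2, at 11116 and 9087 against 3125 to 4734 in the other libraries. Mural cell markers, led by Vtn, Acta2 and Rgs5, were also highest in replicate 2, at 1716 and 1018 against 379 to 587. Choroid plexus markers were low there, at 89 and 76 against 879 to 982, mainly through Ttr, the most abundant of them before Folr1 and Clic6. In the fibroblast, mural cell and choroid plexus lists, replicate 2 thus differed from replicates 1 and 4 in the same direction in both groups. For the microglia, astrocyte and granule cell progenitor sums, replicate 2 differed from replicates 1 and 4 in opposite directions in shYthdf2 and shCtrl. Markers of Schwann cells, the myelin-forming cells of peripheral nerves, summed to 243 to 305, led by Prx, Pmp22 and Egr2, with Pmp2 and Foxd3 at 0 in all 6 libraries. Endothelial markers, led by Cdh5, Slco1a4 and Pecam1, summed to 98 to 406, and Cldn5 was at 0 in 5 of 6 libraries. GABAergic interneuron markers, with Gad1 the most abundant, had ratios of 1.5, 1.33 and 1.54, and granule cell markers, led by Zic1, Reln and Zic2, had ratios of 1.06, 1.03 and 1.07. Zic1, Reln and Zic2 made up most of that granule cell sum. Of the 10 granule cell markers, 1 was over 2-fold higher in both replicates 1 and 4. It was Cbln3, with ratios of 3.3, 1.24 and 3.55 in replicates 1, 2 and 4. The summed granule cell progenitor markers, led by Barhl1, Mycn and Ccnd2, were lower in shYthdf2 in all 3 replicates, with ratios of 0.667, 0.836 and 0.725, but Barhl1 made up most of the sum and 5 of the 6 genes tested had estimates above 0.

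**Figure D5:**
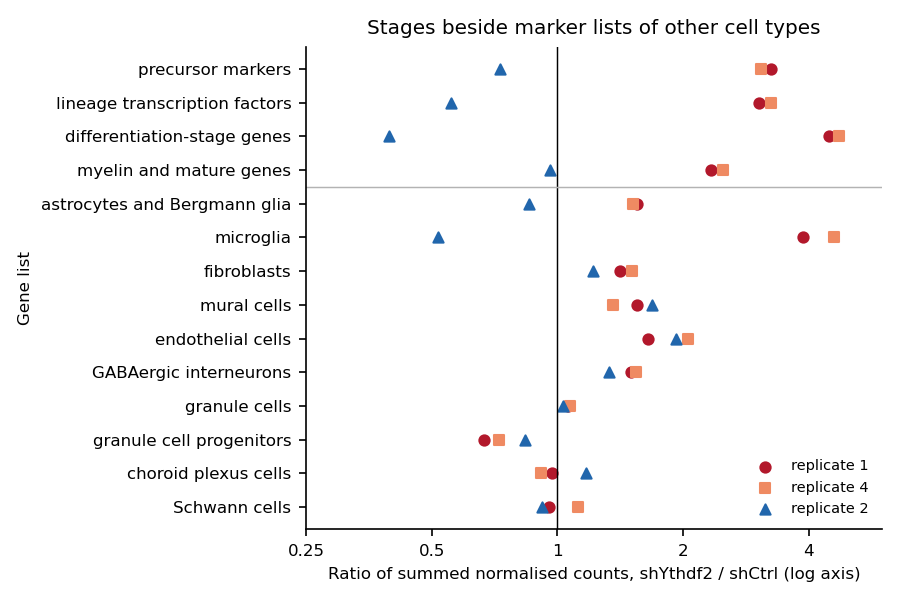
Ratio of the summed normalized counts of each gene list, shYthdf2 over shCtrl (x axis, log scale), within replicates 1 (circles), 4 (squares) and 2 (triangles). The 4 stages of the lineage are above the grey line and the marker lists of other cell types below it. Microglia (3.88, 4.60 and 0.517) show the same wide spread between replicates as the differentiation-stage genes, while granule cells lie near 1 in all 3.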

How the data were processed

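Counts per gene of 6 libraries were used as deposited. By the methods of the study, the authors removed low-quality reads, aligned the remaining ones by HISAT and TopHat2 (GRCm38) and obtained counts per gene by HTSeq, which were not normalized. The labels instead name Bowtie 0.12.2 and mm9, and the strand setting and the annotation version are not given in the sources used here. Of 53421 genes, 785 lay outside the annotation (0.303% of counts) and 52489 were matched to a symbol in GENCODE M21. filterByExpr in edgeR 4.0.16 (R 4.3.3; minimum count 10, minimum total count 15) kept 17214 genes. TMM normalization, the quasi-likelihood test without a block and Benjamini-Hochberg adjustment over all genes tested followed, and the tests were tried on simulated data. Ratios within a replicate used a prior of 0.5 normalized counts where they were taken on the log2 scale. Depth was 17246821 to 21546595 counts, so genes with few counts are imprecise. The labels do not say whether the libraries of a group came from separate animals, so p-values measure only the spread between these libraries. Deviations from the group means correlated between libraries of the same number at 0.252, 0.360 and 0.321 (replicates 1, 2 and 4), so the numbers were treated as pairing the libraries in an alternative with a replicate block. DESeq2 1.42.0, other scalings and filters and the removal of libraries were the other alternatives. Genes named were all 30 members, Ythdf2, and, of each further list, the genes with the smallest p or the highest level. A few genes that this rule would name are not reported here. Other genes named were chosen after their values were seen. Members and lists were chosen with earlier results of these data known.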

Additional observations from a re-analysis of the deposited data

How the results depend on the processing

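None of the 30 members passed the adjusted threshold under other scalings, other filters, DESeq2 or the replicate block. Leaving out each library in turn gave 0 to 23 calls among them, the 23 without shCtrl replicate 2. With both libraries of replicate 2 left out, 25 were called, while 52.7% of all genes tested there passed. In that fit 26 passed the unadjusted threshold and the groups of 28 did not overlap. The share of all genes was not taken for these counts, so they show nothing particular to these genes. That share was also not taken for the unadjusted and non-overlap counts that follow, except with the replicate block. The unadjusted count was 3 with plain library sizes, 4 with DESeq2, 8 without the filter, 10 with the replicate block and 0 to 25 with 1 library left out. Groups that did not overlap numbered 0 without the filter and 1 to 26 with 1 library left out. Median log2 fold changes without both libraries of replicate 2 were 1.35 (precursor markers), 1.78 (lineage transcription factors), 2.15 (differentiation-stage genes) and 1.34 (myelin and mature genes), and with 1 library left out they ranged over 0.50 to 1.36, 0.15 to 1.62, 0.29 to 1.75 and 0.36 to 1.46. Among the 58 other lineage and signal genes tested, those past the adjusted threshold numbered 7 with DESeq2 (8.88% of all genes) and 1 with the replicate block (1.35% of all genes). They numbered 44 without both libraries of replicate 2 (52.7% of all genes), 2 without the filter and 0 to 26 with 1 library left out. For the last 2 settings the share of all genes in either direction was not taken. Ythdf2 had a log2 fold change of -0.57 with DESeq2 (adjusted p = 0.0392) and -0.32 without replicate 2 (adjusted p = 0.00124 by edgeR), and -0.66 to -0.41 with 1 library left out, with adjusted p of 0.00124 to 0.363 over all alternatives. Estimates that turned sign were those of Ermn (-0.36) and Aspa (-0.088) without shYthdf2 replicate 2, Olig1 (-0.16), Nkx2-2 (-0.095) and Aspa (-0.071) without shCtrl replicate 1, and Olig1 (-0.14) and Nkx2-2 (-0.041) without shCtrl replicate 4. With 1 library left out, the estimates ranged up to 1.02 for Ermn, 1.36 for Aspa, 1.42 for Olig1 and 1.81 for Nkx2-2, each without shCtrl replicate 2. With the replicate block, the adjusted calls of members stayed at 0, while the unadjusted ones numbered 10. The cause of these differences was not tested. Genes below about 30 normalized counts are limited by depth.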
